A study of Mus musculus with 22 samples.

Results

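5-Hydroxymethylcytosine (5hmC) was compared between the cerebellum and the cortex of adult mice across the autosomes, in windows (bins) of 1 Mb. A bin entered the comparison when its 5hmC level was above 0 in every library, which held for 2413 of the 2470 autosomal bins. The other 57 autosomal bins were listed at 0 in every library, and the 168 bins of chromosome X above 0 were left out of the counts. The whole series has 2641 such bins.

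The groups were 3 TAB-seq libraries of whole cerebellum and 3 of cerebral cortex without the hippocampus, from female C57BL/6 mice at 8 weeks of age. The study describes each replicate as an independent mouse, and the labels give neither group a treatment or a genetic change. TAB-seq (TET-assisted bisulfite sequencing) protects 5hmC with a sugar and lets a TET enzyme oxidize 5mC, which leaves 5hmC as the base read as C after bisulfite conversion. The level of a bin is a fraction between 0 and 1. The coverage behind it is unknown, and the spread between libraries, given as the SD, is the error used here. Both tissues are mixtures of cells, so a change in the share of a cell type and a change of 5hmC within cells cannot be told apart. Expression of tissue markers was not analysed here.

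5hmC is made when TET enzymes oxidize 5-methylcytosine (5mC), the usual mark of CpG sites in mammals. It is abundant in neurons and is known to lie mostly in the bodies of transcribed genes, where it builds up as neurons mature. Most neurons of the cerebellum are small granule neurons, whereas the cortex holds glutamatergic projection neurons and several classes of GABAergic interneuron.

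Several of the bins with the largest changes lie over long neuronal genes, and the sequence at the RefSeq start of 6 genes in changed bins is shown to give the density of CpG sites there. Each window runs from 250 bases before to 50 bases after the RefSeq start of the gene (GRCm38.p6), written 5′ to 3′ on the strand of the gene, with every CpG in capitals. Fgf14, Cadps2, Zic1 and Grik2 lie in bins whose relative 5hmC was higher in cerebellum, and Nkain2 and Grm7 in bins where it was lower.
Fgf14: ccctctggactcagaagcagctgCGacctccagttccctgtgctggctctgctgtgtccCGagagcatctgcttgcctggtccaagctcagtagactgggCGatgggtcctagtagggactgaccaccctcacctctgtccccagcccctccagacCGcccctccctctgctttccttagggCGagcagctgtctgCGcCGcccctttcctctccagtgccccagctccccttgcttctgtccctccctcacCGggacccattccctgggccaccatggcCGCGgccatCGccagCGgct
Cadps2: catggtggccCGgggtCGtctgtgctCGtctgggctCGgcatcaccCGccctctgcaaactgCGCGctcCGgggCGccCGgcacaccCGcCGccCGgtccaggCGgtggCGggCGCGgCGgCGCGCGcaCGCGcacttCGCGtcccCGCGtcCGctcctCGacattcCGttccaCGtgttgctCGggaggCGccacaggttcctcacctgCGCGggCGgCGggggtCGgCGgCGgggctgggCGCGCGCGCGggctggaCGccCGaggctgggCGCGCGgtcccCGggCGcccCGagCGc
Zic1: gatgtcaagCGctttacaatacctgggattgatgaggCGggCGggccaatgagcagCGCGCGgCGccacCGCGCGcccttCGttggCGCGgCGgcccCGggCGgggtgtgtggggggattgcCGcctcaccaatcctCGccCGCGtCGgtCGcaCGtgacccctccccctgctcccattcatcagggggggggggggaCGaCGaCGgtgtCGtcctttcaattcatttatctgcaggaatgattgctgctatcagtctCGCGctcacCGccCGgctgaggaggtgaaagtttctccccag
Grik2: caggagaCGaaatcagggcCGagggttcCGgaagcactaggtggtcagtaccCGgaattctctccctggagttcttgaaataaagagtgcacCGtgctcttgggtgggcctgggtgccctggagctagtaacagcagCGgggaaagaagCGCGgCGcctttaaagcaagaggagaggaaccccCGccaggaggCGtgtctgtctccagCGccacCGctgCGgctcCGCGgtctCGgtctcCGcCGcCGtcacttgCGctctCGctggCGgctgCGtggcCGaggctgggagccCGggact
Nkain2: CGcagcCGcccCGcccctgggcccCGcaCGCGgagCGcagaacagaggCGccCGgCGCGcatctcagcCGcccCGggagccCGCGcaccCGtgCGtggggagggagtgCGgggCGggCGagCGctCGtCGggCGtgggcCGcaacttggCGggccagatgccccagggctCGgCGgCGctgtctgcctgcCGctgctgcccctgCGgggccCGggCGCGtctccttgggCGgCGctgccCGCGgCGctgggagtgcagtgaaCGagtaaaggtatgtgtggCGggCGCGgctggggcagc
Grm7: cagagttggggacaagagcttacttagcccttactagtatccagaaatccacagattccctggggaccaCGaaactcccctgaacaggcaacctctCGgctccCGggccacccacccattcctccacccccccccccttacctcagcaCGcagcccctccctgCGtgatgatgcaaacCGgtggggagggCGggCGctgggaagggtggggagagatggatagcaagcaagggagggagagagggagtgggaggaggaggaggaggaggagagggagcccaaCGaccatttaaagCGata
The Fgf14 window (chr14:124192497-124192796, minus strand) holds 12 CpG, and 39.6% of 32851 RefSeq promoter windows of this length hold at least as many. This window lies 485 kb inside the GENCODE model of Fgf14, so it is an internal start of the gene, whereas the starts of the other 5 genes in both annotations lie within 1 kb of each other. The Cadps2 window (chr6:23839372-23839671, minus strand) holds 54 CpG, a number reached by 0.347% of windows, and the Nkain2 window (chr10:32889866-32890165, minus strand) holds 43, reached by 2.61%. Zic1 (chr9:91365719-91366018, minus strand) has 31 CpG, Grik2 (chr10:49788705-49789004, minus strand) 26 and Grm7 (chr6:110645262-110645561, plus strand) 10. All 6 windows held more CpG than the median window, which has 7. The numbers ran from 12 to 54 in bins of higher relative 5hmC and were 10 and 43 in bins of lower relative 5hmC. At least 1 CpG is present in 94.6% of all windows. A level over 1 Mb does not resolve windows of this size, so the sequences describe the genes of the bins and not where in the bin 5hmC lay.

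The cerebellum had less 5hmC than the cortex in nearly every bin. The median level over bins was 0.175, 0.188 and 0.168 in the cortex libraries and 0.0961, 0.0960 and 0.0995 in the cerebellum libraries. These medians did not overlap, and the mean difference was -0.0800 (exact permutation test, two-sided, p = 0.1, which is as low as 3 against 3 libraries allow). Bin by bin, the mean level of cerebellum minus that of cortex had a median of -0.0735, with 5% of bins below -0.112 and 5% above -0.0210. Expressed as a ratio, the cerebellum held 0.561 times the cortex level in the median bin, with a range from 0.323 to 0.853 between the 5th and 95th percentiles. The mean was higher in cerebellum in 23 bins. In the limma test of the log-odds of the level, log2(level/(1 − level)), 2354 bins (97.6%) were lower and 10 (0.414%) higher in cerebellum at an adjusted p under 0.05, together 98% of bins. The libraries of the tissues did not overlap in 97.9% of bins, with 2352 (97.5%) lower and 10 higher in cerebellum. Without the second cortex library limma called 18 bins higher. limma estimated 1 common variance for all bins on this scale, so the standard error was 0.0732 in each. The spread between libraries within a bin therefore played no part in its level call. The bin chr17:39000001-40000000, described below, was called higher although its libraries overlapped. The 10 bins called higher are thus not the same 10 as those higher without overlap.

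Each level was also divided by the median of its own library and put on a log2 scale. This relative level asks whether a bin kept more or less 5hmC than the typical bin of the same library. On that scale 1149 bins (47.6%) were higher and 1027 (42.6%) lower in cerebellum, together 90.2% of bins, and 237 passed in neither direction. The libraries did not overlap in 90.3% of bins, 1153 (47.8%) higher and 1025 (42.5%) lower in cerebellum. The relative change ran from -1.48 to 1.66 with a median of 0.03 and an SD across bins of 0.436. Between libraries of the same tissue, the SD across bins of the difference in relative level was between 0.0485 and 0.0934. Between a cerebellum and a cortex library it was between 0.430 and 0.454, well beyond the spread between mice of a tissue.

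The choice of scale decided part of the calls. When the library median was subtracted in place of being divided out, 1266 bins (52.5%) were higher and 778 (32.2%) lower, together 84.7%. On this scale the libraries did not overlap in 85.9% of bins, with 1274 (52.8%) higher and 799 (33.1%) lower. Of the 1149 bins higher as a ratio, 968 were also higher as a difference and 43 were lower. Of the 1027 bins lower as a ratio, 677 were also lower as a difference and 185 were higher. These 185 bins had a median level of 0.108 in cortex and 0.0458 in cerebellum, low in both tissues. For the genes named in the lists, both values are given where they differ in sign, except for the Hox bins, which are given as counts.

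**Figure D1:**
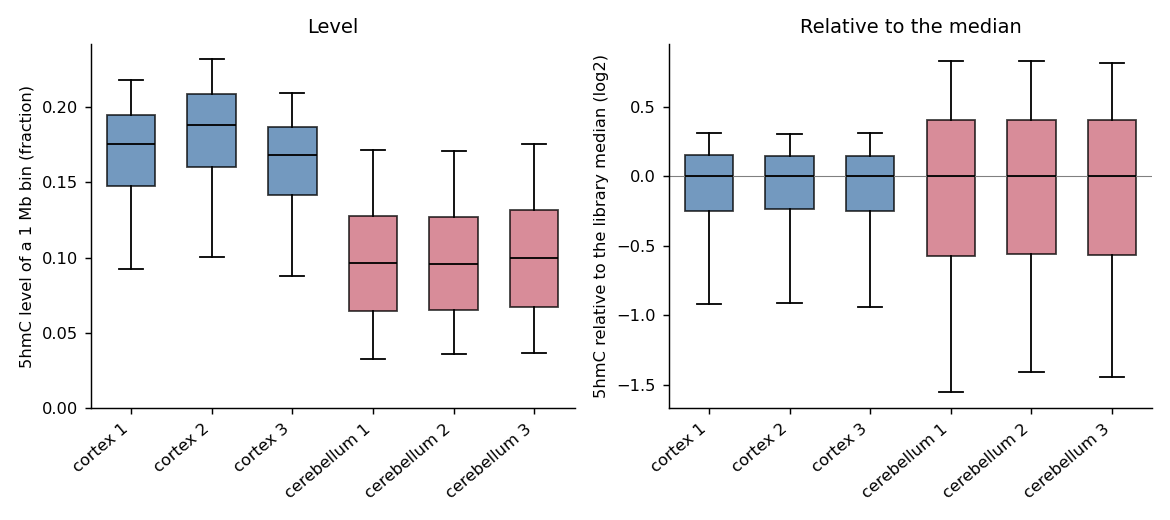
Box plots of the 5hmC level (left, fraction) and of the level relative to the library median (right, log2) over 2413 autosomal bins of 1 Mb in each library. Boxes span the middle 50% of bins with the median as a line, and whiskers the 5th to 95th percentiles. The cerebellum medians lie between 0.0960 and 0.0995 against 0.168 to 0.188 in cortex, and the relative levels spread more widely in cerebellum.

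Relative to its low median, the cerebellum had the more uneven 5hmC map. The SD of the relative level across bins was 0.513, 0.509 and 0.504 in the cortex libraries and 0.765, 0.723 and 0.731 in the cerebellum libraries. Every cerebellum library lay above every cortex library, by a mean of 0.231 (exact permutation p = 0.1). The level at the 95th percentile of bins was 2.35 ± 0.0388 times that at the 5th in cortex and 4.92 ± 0.266 times in cerebellum (SD, n = 3 each). The SD of the level itself was 0.0403 ± 0.00174 in cortex and 0.0427 ± 0.000767 in cerebellum, a difference of 0.00234 with overlapping libraries (exact permutation p = 0.2).

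**Figure D2:**
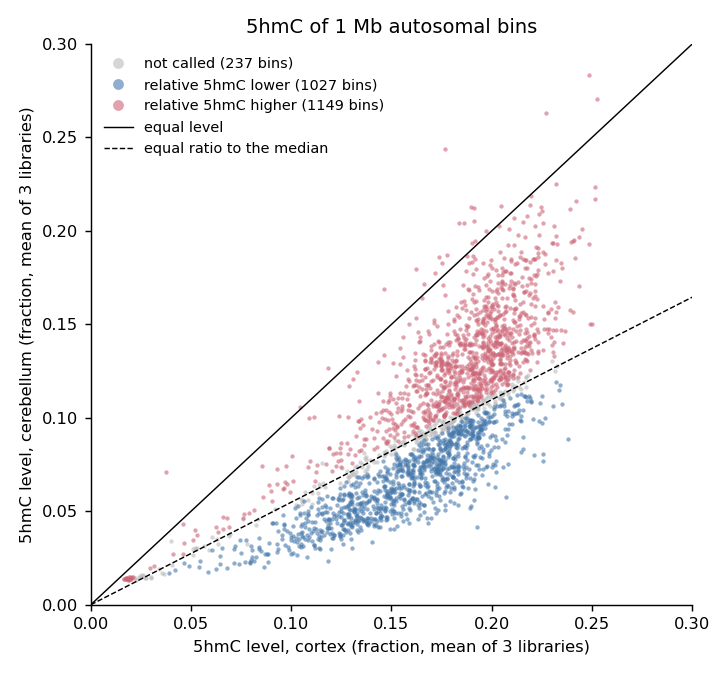
Mean 5hmC level in cerebellum against that in cortex for each bin (fractions, means of 3 libraries), coloured by the limma call on the level relative to the library median. Most bins lie below the solid line of equal level, and the calls part along the dashed line of equal ratio to the median, with 1149 bins called above it and 1027 below it.

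Gene-rich sequence kept a larger part of its 5hmC in cerebellum than gene-poor sequence. Genes covered at least 80% of 202 bins, and there the level was 0.197 ± 0.0110 in cortex and 0.130 ± 0.00240 in cerebellum. In the 404 bins with a gene cover of at most 20%, it was 0.132 ± 0.00858 and 0.0564 ± 0.00133 (SD, n = 3 each). The gene-rich bins exceeded the gene-poor bins in relative level by 0.649, 0.627 and 0.647 in the cortex libraries and by 1.26, 1.20 and 1.21 in the cerebellum libraries. This contrast was wider in cerebellum by 0.581 with no overlap between libraries (exact permutation p = 0.1). As a difference of levels the contrast was 0.0652 ± 0.00247 in cortex and 0.0737 ± 0.00145 in cerebellum, wider by 0.00848, again without overlap (exact permutation p = 0.1).

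Base composition ordered the bins in the same way. Among the fifth of bins with the lowest GC content (34.9 to 38.5%), 16.1% were relatively higher and 74.9% lower in cerebellum. Among the fifth with the highest (45.0 to 53.7%), 89.2% were higher and 6.42% lower. Between these ends the share of higher bins went through 27.0%, 45.8% and 60.0%. From the least to the most gene cover, the share of higher bins went from 12.4% to 72.5%, and from the fewest to the most CpG sites per kb from 15.3% to 83.6%. Across 2413 bins Pearson's r of the relative change was 0.56 with GC content, 0.53 with CpG density and 0.47 with gene cover. The same r on the difference scale was 0.25, 0.20 and 0.11. GC content, CpG density and gene cover vary together along the genome, and neighbouring bins share them, so these values are descriptions.

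The 5hmC level in the olfactory bulb, a tissue outside the comparison but in the same fit, ordered the bins too. In the quartile of bins with the least 5hmC in bulb, 21.9% were relatively higher in cerebellum than in cortex, and in the quartile with the most, 74.5%. The median ratio of cerebellum to cortex level went from 0.449 to 0.656 between these quartiles. This order did not hold on the difference scale, where 398 of 604 bins were higher and 104 lower in the quartile with the least bulb 5hmC, and 337 of 603 were higher and 178 lower in that with the most. Across bins r of the change with the bulb level was 0.39 on the ratio scale and -0.18 on the difference scale.

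**Figure D3:**
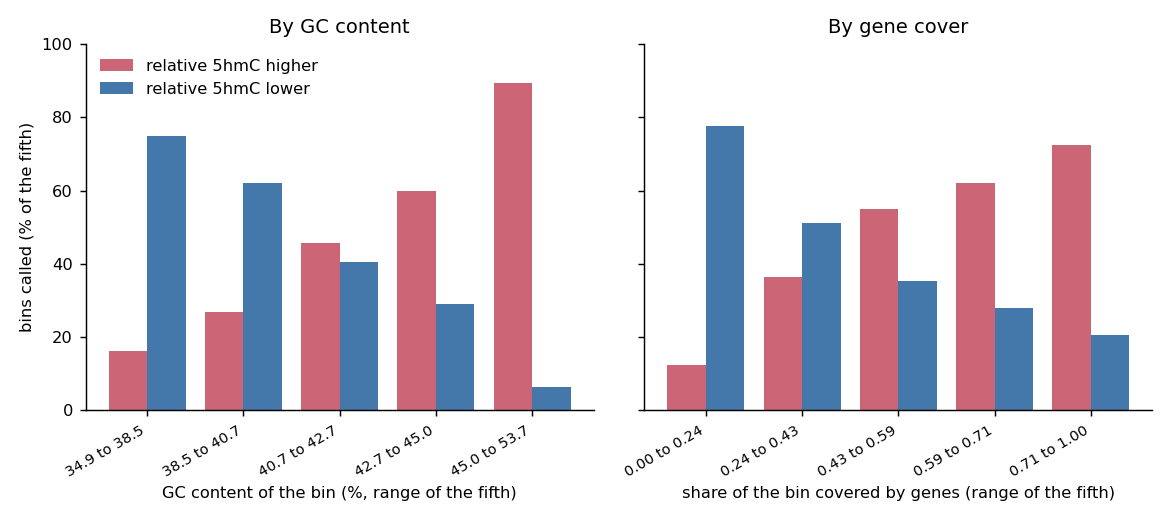
Share of bins called relatively higher (red) or lower (blue) in cerebellum by limma, for bins in 5 groups of equal size by GC content (left) and by the share of the bin covered by genes (right). Bars start at 0 and each group holds 482 or 483 bins, with the share higher going from 16.1% to 89.2% by GC content.

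5mC was read in the same bins by oxBS-seq, which oxidizes 5hmC chemically before bisulfite conversion and leaves 5mC as the base read as C. The median 5mC level was 0.687, 0.689 and 0.662 in 3 cortex libraries and 0.750 and 0.733 in 2 cerebellum libraries, higher in cerebellum by 0.0623 without overlap (exact permutation p = 0.1, the smallest possible). In the limma test 2120 bins (87.9%) had more 5mC in cerebellum and 51 (2.11%) less, together 90% of bins. Without the second cerebellum library, which leaves 1 that is assumed to vary like the others, 28 bins had less. Across bins the change in 5mC and the change in 5hmC level had r = -0.69 (n = 2413 bins). Bins that were relatively higher in 5hmC went from a median 5mC of 0.645 in cortex to 0.699 in cerebellum. Bins that were relatively lower started from 0.707 and reached 0.779. The median rise in 5mC was 0.0530 in the former and 0.0687 in the latter.

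The 10 bins called higher in 5hmC level in cerebellum were also the 10 with the largest relative rise. Both scales use the same levels, and the relative log2 scale only shifts each library by a constant. This agreement was therefore largely fixed in advance. The largest rise in level was in the bin of Fgf14 (chr14:124000001-125000000), a fibroblast growth factor homologue that binds sodium channels and is mutated in a spinocerebellar ataxia. Its level was 0.177, 0.194 and 0.159 in cortex and 0.249, 0.238 and 0.244 in cerebellum. All cerebellum libraries lay well above all cortex libraries, and the relative level rose by 1.33 (SE 0.036, limma adjusted p = 1.6e-09). Fgf14 covers 677 kb of the bin, of which 802244 bases are known sequence. This bin is the last of chromosome 14, which ends at position 124902244, so it is shorter than 1 Mb.

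Rbfox1, a regulator of splicing in neurons, fills all 1000 kb of its bin (chr16:6000001-7000000). The level there was 0.223, 0.239 and 0.220 in cortex and 0.259, 0.263 and 0.268 in cerebellum, and the relative rise was 1.08 (SE 0.018, adjusted p = 6.3e-10). The 3 libraries of cerebellum stood above those of cortex without overlap.

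Other bins of this group lay over Cdh18, Car10, Grik2, Cadps2, Zfp521 and Dpp6, with relative rises between 1.00 and 1.07. Cadps2, which primes dense-core vesicles for release and is strongly used in granule neurons, covers 577 kb of chr6:23000001-24000000. Its bin had 0.160, 0.174 and 0.152 in cortex and 0.177, 0.182 and 0.180 in cerebellum, 1.11 times the cortex mean. The bin of Grik2, a kainate receptor subunit (chr10:49000001-50000000), had 0.185, 0.195 and 0.171 in cortex and 0.202, 0.204 and 0.207 in cerebellum. The Cdh18 bin, over a cadherin (chr15:23000001-24000000), had 0.144, 0.161 and 0.134 against 0.171, 0.169 and 0.165. In these bins too the tissues did not overlap, though the nearest libraries were close. For Car10 (chr11:93000001-94000000), related to carbonic anhydrases, the means were 0.190 ± 0.0103 and 0.213 ± 0.00121. For Zfp521 (chr18:13000001-14000000), a zinc finger factor, they were 0.191 ± 0.00884 and 0.212 ± 0.00540, and for Dpp6 (chr5:27000001-28000000), a partner of A-type potassium channels, 0.186 ± 0.00706 and 0.204 ± 0.00377. In 7 of the 10 bins no change in 5mC was called, 2 (the bin of Cdh18 among them) had more 5mC in cerebellum and 1 had less. Of all bins 87.9% were called higher and 2.11% lower in 5mC.

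The bin with the largest fitted rise rested on uneven libraries. It lies at chr17:39000001-40000000 and holds Esp38, Esp15, Esp16 and Esp18 of the exocrine gland-secreted peptides. Its level was 0.0471, 0.0272 and 0.0381 in cortex and 0.0306, 0.0840 and 0.0988 in cerebellum, so the first cerebellum library lay inside the range of cortex. The relative rise of 1.66 had an SE of 0.41 (adjusted p = 0.0038), and without that library it was 2.18.

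**Figure D4:**
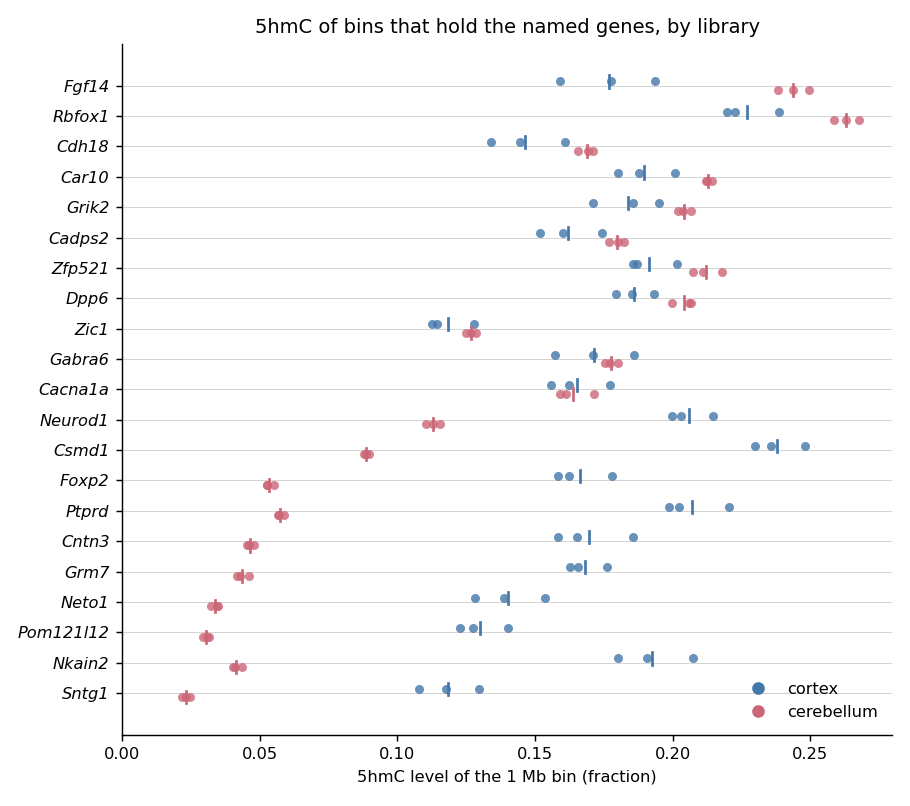
5hmC level (fraction) in each of 3 cortex (blue) and 3 cerebellum (red) libraries for the 1 Mb bins that hold the named genes, with short bars at the means. From Fgf14 to Dpp6 every cerebellum library lies above every cortex library, Zic1, Gabra6 and Cacna1a overlap, and from Neurod1 down every cerebellum library lies below.

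The largest relative fall was over Sntg1, a syntrophin of neurons (chr1:8000001-9000000). Its level was 0.117, 0.130 and 0.108 in cortex and 0.0219, 0.0233 and 0.0246 in cerebellum, 0.197 times the cortex mean. The tissues were far apart, and the relative level fell by 1.48 (SE 0.047, adjusted p = 2.8e-09). Nkain2, a membrane protein that interacts with the sodium pump, covers 890 kb of chr10:32000001-33000000 and had 0.191, 0.207 and 0.180 in cortex and 0.0404, 0.0409 and 0.0434 in cerebellum. This was also the largest fall in level of the 2413 bins, -0.151, and the relative level fell by 1.35 (SE 0.021, adjusted p = 6.3e-10). Over the same bin 5mC went from 0.677 to 0.803.

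Grm7, a presynaptic metabotropic glutamate receptor, begins in chr6:110000001-111000000, where the level was 0.168 ± 0.00714 in cortex and 0.0436 ± 0.00219 in cerebellum and the relative level fell by 1.08. A bin with Neto1, an auxiliary subunit of kainate receptors, and Cbln2, a synapse organizer (chr18:86000001-87000000), fell by 1.18. The next bin on that chromosome, with Gm5096, fell by 1.13. The other bins of largest relative fall held little coding sequence. Pom121l12 covers 1.04 kb of chr11:14000001-15000000, which fell by 1.22, and Pabpc4l 6.02 kb of chr3:46000001-47000000, which fell by 1.02. The bins chr11:13000001-14000000, chr10:124000001-125000000 and chr4:7000001-8000000 hold no protein-coding gene. In each of the 10 bins the mean cerebellum level was at most 0.0436 and 5mC was called higher in cerebellum, as in 87.9% of all bins. The tissues did not overlap in these bins, but bins with overlap on either relative scale could not be chosen.

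Measured as a fall in level, the largest losses after Nkain2 were in bins inside other long genes. Ptprd, a receptor phosphatase of synapse formation, went from 0.207 ± 0.0117 to 0.0575 ± 0.00112 in chr4:77000001-78000000. Csmd1, a complement-regulating membrane protein (chr8:16000001-17000000), went from 0.238 ± 0.00924 to 0.0886 ± 0.000952. For Nckap5 (chr1:126000001-127000000) the levels were 0.225 ± 0.0106 and 0.0767 ± 0.00250, and for the glypican Gpc6 (chr14:117000001-118000000) 0.226 ± 0.0113 and 0.0806 ± 0.00199. All 5 bins were called higher in 5mC, as were 87.9% of all bins, with gains from 0.0879 over Nckap5 to 0.168 over Ptprd.

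The GC content of the 10 bins of relative fall was between 36.6 and 38.5%, and that of the 10 bins of relative rise spread from 36.3 to 44.0%, against a median of 41.7% over all bins.

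The counts for the gene lists that follow are read against all bins, of which 47.6% rose and 42.6% fell in relative level, 97.6% fell in level, and 52.5% were higher and 32.2% lower on the difference scale. They are descriptions of the listed bins, without a test of the list. The lists were not matched for GC content. In the fifth of bins with the lowest GC content 16.1% rose and 74.9% fell, and in the highest 89.2% rose and 6.42% fell. The part of base composition in the list counts was not tested. A value named for a gene is that of its whole 1 Mb bin, of which the gene may be a small part.

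Genes of cerebellar granule neurons mostly lay in bins with a higher relative level in cerebellum. The 18 listed genes fell in 17 bins, of which 16 rose in relative level and none fell, with a median relative change of 0.65 against 0.03 over all bins. In level, 12 of these bins were lower in cerebellum, 1 was higher and 4 passed in neither direction, where 97.6% of all bins were lower. Besides Cadps2, the bin of Zic1 and Zic4, zinc finger factors of the granule lineage (chr9:91000001-92000000), had 0.114, 0.128 and 0.112 in cortex and 0.125, 0.127 and 0.128 in cerebellum. The raw levels overlapped while the relative level rose by 0.97 (SE 0.027, adjusted p = 1.6e-09). The bin of Gabra6, the GABA-A subunit typical of granule neurons, rose by 0.92 at levels of 0.171 ± 0.0144 and 0.177 ± 0.00248. The exception was Neurod1, a differentiation factor, at 0.206 ± 0.00788 and 0.113 ± 0.00252, with a relative change of 0.0010 (adjusted p = 0.96) and a value 0.0128 lower as a difference from the median. Several of these genes cover under 10 kb of their bin, so the value is that of the region around them.

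Purkinje cell genes were in 18 bins, of which 13 rose and 3 fell in relative level (median 0.34), against 47.6% and 42.6% of all bins. All 18 fell in level, as did 97.6% of all bins. Car8, a carbonic anhydrase-related protein of Purkinje cells, rose by 0.60. Foxp2, a transcription factor, fell by 0.77 with levels of 0.166 ± 0.0104 and 0.0535 ± 0.00160. Itpr1, a calcium release channel, fell by 0.12.

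Of 20 bins with genes of cortical excitatory neurons, 8 rose and 12 fell in relative level (median -0.14), against 47.6% and 42.6% of all bins. Rorb, a factor of cortical layer neurons, fell by 0.78. Cux2 and Neurod2, both factors of cortical neurons, lay in bins that rose by 0.55 and 0.42. Of 11 bins with genes of cortical interneurons, 4 rose and 6 fell (median -0.16). On the difference scale 5 of these interneuron bins were higher and 5 lower, with a median of 0.00468, so the list had no direction that held on both scales. The bin of Vip, a neuropeptide, rose by 0.82 with levels of 0.190 ± 0.0123 and 0.184 ± 0.00261, and the bin of Erbb4, a neuregulin receptor, rose by 0.67. The bin of Nxph1, a neurexin ligand, fell by 0.40 as a ratio but was 0.00468 higher as a difference from the median. The bin of the homeobox genes Dlx5 and Dlx6 fell by 0.26.

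Bins with glial genes are set against the 47.6% of all bins that rose and the 42.6% that fell. Of 12 astrocyte bins 8 rose and 3 fell (median 0.22). The largest rises were in the bin of Gfap, the glial filament protein, by 0.50 and that of Aldh1l1, a folate enzyme, by 0.42. Sox9, a glial transcription factor, fell by 0.48, and Ndrg2 fell by 0.38 as a ratio but was 0.0116 higher as a difference. Of 12 oligodendrocyte bins 10 rose and 2 fell (median 0.29), with the zinc finger gene St18 at 0.45 and Myrf, a factor of myelin genes, at 0.39. Ugt8a, which makes myelin lipids, fell by 0.55, and Mog, a myelin protein, fell by 0.29 as a ratio and was 0.0370 higher as a difference. Of 10 microglia bins 7 rose and 2 fell (median 0.20), with Tmem119 at 0.75, the growth factor receptor Csf1r at 0.62 and Siglech at -0.31.

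Genes that write, oxidize or read DNA methylation were in 21 bins, of which 15 rose and 5 fell in relative level (median 0.24), against 47.6% and 42.6% of all bins. The bin of Mbd3, a repressor complex subunit, and Gadd45b rose by 0.63, and that of the methyltransferase Dnmt3b by 0.52. Uhrf2, described as a reader of 5hmC, fell by 0.48 and Mbd2, a methyl-CpG binder, fell by 0.27.

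Ion channel and receptor genes split by gene. Of 25 bins with glutamate receptor genes 16 rose and 9 fell in relative level (median 0.27), against 47.6% and 42.6% of all bins. After Grik2 the largest rise was that of Grm4, a metabotropic receptor of granule neurons, by 0.89 at levels of 0.196, 0.213 and 0.183 in cortex and 0.195, 0.199 and 0.206 in cerebellum, which overlapped. The metabotropic receptor genes Grm8 and Grm5 fell by 0.83 and by 0.74, with cerebellum levels of 0.0465 and 0.0535. Of 9 GABA-A receptor bins 4 rose and 4 fell (median 0.02), near the shares over all bins. The bin that holds Gabra6 led, followed by that of Gabrd, an extrasynaptic subunit, at 0.77. The subunit genes Gabrg1 and Gabrr3 fell by 0.71 and by 0.54.

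Of 79 bins with potassium channel genes 56 rose and 15 fell in relative level (median 0.29), against 47.6% and 42.6% of all bins. Kcnd2, which carries A-type current in granule neurons, lay in a bin at 0.186, 0.201 and 0.183 in cortex and 0.188, 0.199 and 0.193 in cerebellum. Its levels overlapped and its relative level rose by 0.89 (SE 0.026, adjusted p = 1.9e-09). Kcnj6, an inward rectifier, rose by 0.75. Kcnt2, a sodium-activated channel, fell by 0.98, and Kcnc2, a channel of fast-spiking neurons, fell by 0.74. Of 21 bins with voltage-gated calcium channel genes 17 rose and 2 fell (median 0.49), against the same shares. Cacna1a, the P/Q-type pore subunit, rose by 0.86 at 0.165 ± 0.0109 and 0.164 ± 0.00647, and the subunit gene Cacnb4 by 0.77. The bin of Cacng7 fell by 0.20 as a ratio and was 0.0224 higher as a difference.

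Adhesion genes also split by gene. Of 20 cadherin bins 12 rose and 7 fell in relative level (median 0.18), not far from the 47.6% and 42.6% of all bins. Next to Cdh18 at 1.07 the bin of Cdh15, a cadherin found in the granular layer, rose by 0.75, and Cdh12 and Cdh11 fell by 0.76 and by 0.70. The bin of Cdh12 (chr15:21000001-22000000) lies near that of Cdh18 on the same chromosome. Of 18 bins of contactin and neurexin genes 11 rose and 5 fell (median 0.20), against the same shares. Nrxn2 rose by 0.67, while Cntn3, a contactin, fell by 1.00 and Cntnap5b, of the neurexin superfamily, fell by 0.86.

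Long genes went in both directions. Genes of at least 500 kb covered 215 bins, of which 104 rose and 97 fell in relative level, near the 47.6% and 42.6% of all bins, with a median of 0.03 in both. On the difference scale 89 of them were higher and 102 lower, against 52.5% and 32.2% of all bins. Their median 5hmC level was 0.192 in cortex, against 0.177 over all bins, and 0.111 in cerebellum, against 0.0968. There were 21 genes of at least 1 Mb that covered 2 or more bins over at least 50% of the bin. As a ratio, 8 had bins that all rose, 5 bins that all fell and 5 had bins of both directions. The genes are annotated models, and that of Gm20388 (4435 kb) covers the whole bin of Cdh15, so a model can span other genes. The widest spread was within Ptprd, where the bin at chr4:77000001-78000000 fell by 0.98. The other bin inside the gene, chr4:76000001-77000000, was at 0.244 ± 0.0155 in cortex and 0.171 ± 0.00626 in cerebellum and rose by 0.35. As a difference from the median that bin was 0.00699 higher and was not called (limma adjusted p = 0.060). In Pde4d, a cAMP phosphodiesterase, the first of its bins fell by 0.15 and the second rose by 0.82, with cerebellum levels of 0.0961 and 0.225. In Kcnip4, a potassium channel partner, the first rose by 0.61 and the second fell by 0.17. The bins of Pde4d and of Kcnip4 were also called in opposite directions on the difference scale. Dlg2, a postsynaptic scaffold, and Fgfr2, a growth factor receptor with a model of 2961 kb in this annotation, were the other two. Their bins lay between -0.12 and 0.12 and between -0.05 and 0.50. On the difference scale the first Dlg2 bin was not called (0.000655, limma adjusted p = 0.78). The 3 Fgfr2 bins were all above 0 on that scale, from 0.00346 to 0.0299. Both bins of Csmd1 fell, by 0.32 and 0.56, and both bins of Auts2, a gene linked to autism, rose by 0.65 and 0.56.

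Multigene families were described by their bins alone. Of 170 bins with zinc finger genes 122 rose and 24 fell in relative level (median 0.23), against 47.6% and 42.6% of all bins. Of 81 bins with olfactory receptor genes 40 rose and 30 fell (median 0.06), and of 51 with vomeronasal receptor genes 28 rose and 14 fell (median 0.20), so that the olfactory split was near that of all bins. On the difference scale the split was 71 higher and 5 lower for olfactory and 47 higher and 3 lower for vomeronasal receptor bins, against 52.5% and 32.2% of all bins. These bins had low levels, with medians in cortex of 0.138 and 0.0823. As a ratio, the 5 bins of the Hox clusters gave 3 rises, 1 fall (the Hoxd bin, by 0.20) and 1 without a call (the Hoxb bin, at -0.04). On the difference scale 4 of the 5 were higher and 0 lower, against 52.5% and 32.2% of all bins. At least 1 of the Hoxd and Hoxb bins, both below 0 as a ratio, was thus higher as a difference.

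A small set of bins was close to 0 in both tissues. In 30 bins the cortex mean was below 0.03, a limit chosen after the values were seen. Their cortex levels ran from 0.0168 to 0.0298, and their cerebellum levels lay in a narrow band from 0.0134 to 0.0198 with a median of 0.0143. Of these bins 13 are on chromosome 7 and 6 on chromosome 12, and 14 hold vomeronasal receptor genes or pseudogenes, 3 olfactory receptor genes and 2 immunoglobulin heavy chain genes. In relative level 18 of them were called higher and 0 lower, against 47.6% and 42.6% of all bins. All 30 were called lower in level, as were 97.6% of all bins. All 30 were called higher on the difference scale, against 52.5% of all bins. Their 5mC went from a median of 0.744 in cortex to 0.699 in cerebellum, and all 30 were called lower in 5mC. Only uniquely mapped reads entered the levels, and the part of near-identical gene copies in these values was not tested. Without these bins the relative calls were 1131 higher and 1027 lower, and the number of bins with less 5mC went from 51 to 21.

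Changes ran on from bin to bin over a few Mb. Pearson's r of the relative change between adjacent bins was 0.43 (2394 pairs), against 0.064 to 0.307 for the deviations of single libraries from their tissue mean. It was 0.22 at 2 Mb, 0.11 at 4 Mb and 0.076 at 5 Mb, where the library deviations reached 0.102. Of the adjacent pairs 737 (30.8%) were both higher, 634 (26.5%) both lower and 585 (24.4%) of opposite direction. Bins called in the same direction formed 412 runs of higher and 393 runs of lower bins, with a median length of 2 bins in each. Runs of at least 5 bins numbered 70 and 57.

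**Figure D5:**
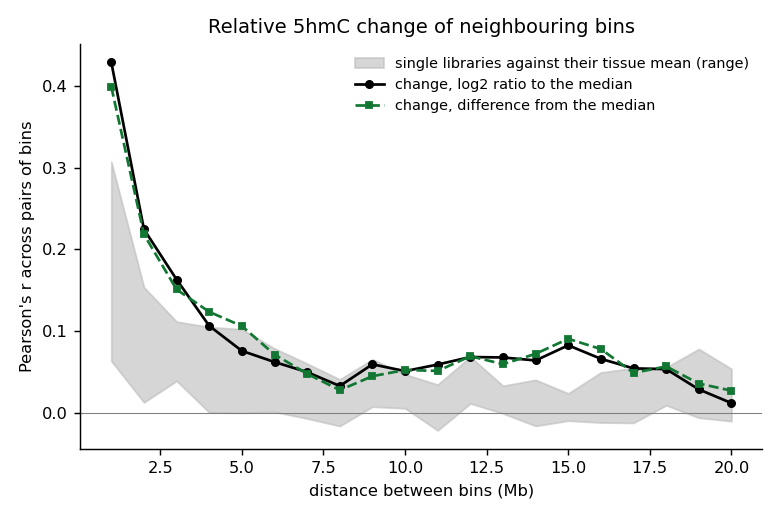
Pearson's r between the relative 5hmC change (cerebellum minus cortex) of bins at distances of 1 to 20 Mb, on the ratio scale (black) and on the difference scale (green). The grey band spans the r of single libraries' deviations from their tissue mean, and the black line starts at 0.43 and falls to 0.076 at 5 Mb.

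The longest runs of higher bins had 20 bins each. The run at chr5:129000001-149000000 holds Auts2, Sdk1, Caln1, Galnt17, Mtus2 and Cux1, with a median rise of 0.34 and mean levels of 0.185 in cortex and 0.135 in cerebellum. The run at chr4:125000001-145000000 holds Csmd2, Grik3, Igsf21, Eif4g3, Ephb2 and Epb41 and had a median rise of 0.48. A run of 19 bins at chr15:71000001-90000000, with Trappc9 and Rbfox2 among its genes, rose by a median of 0.40. All 20 bins of the runs on chromosomes 5 and 4 were also higher on the difference scale, and 17 of 19 on chromosome 15.

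The longest run of lower bins, chr3:32000001-51000000, had 19 bins and its relative level fell by a median of 0.35, with levels of 0.157 in cortex and 0.0650 in cerebellum. A run of 16 bins at chr12:53000001-69000000, with the long genes Npas3 and Mdga2, fell by a median of 0.54. A run of 14 at chr10:22000001-36000000 holds Nkain2, Lama2 and Ptprk and fell by a median of 0.31. On the difference scale 14, 11 and 9 of their bins were lower. The 3 runs of higher bins had a mean GC content between 46.6 and 48.0% and a gene cover between 0.556 and 0.605 of their length. The 3 runs of lower bins had 38.9 to 39.7% and 0.262 to 0.524.

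Between some neighbours the change was abrupt. The relative change of adjacent bins differed by a median of 0.292, and by more than 0.928 in 5% of pairs. On chromosome 4 the bin chr4:7000001-8000000, without a coding gene, stood at -1.01 and the next bin, with Chd7, a chromatin remodeller, and Car8, at 0.60. On chromosome 5 the bin that starts at 87000001 stood at -0.80 and the next, with Slc4a4, a bicarbonate transporter, at 0.79. On chromosome 11 the bin before Car10 stood at -0.48 and that of Car10 at 1.03. These steps were picked for their size after the values were seen. The largest step, 2.24, was next to the uneven bin with Esp38, between it and the bin with Crisp2.

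Whole chromosomes differed less than their bins. The median relative change per chromosome ran from -0.16 on chromosome 3, with 33.8% of its 157 bins higher, to 0.21 on chromosome 11, with 63.0% of 119. Chromosome 3 had a median level of 0.175 in cortex and 0.0858 in cerebellum, and chromosome 11 had 0.180 and 0.120. Chromosome 11 had the highest GC content of the autosomes, 43.8%, and chromosome 3 the lowest, 40.4%.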

How the data were processed

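5hmC came from 3 cortex and 3 cerebellum TAB-seq libraries, fitted with 3 olfactory bulb libraries, and 5mC from 7 oxBS-seq libraries. The authors mapped reads uniquely to mm10 with Bismark (version not given in the sources used here) and deposited levels as fractions per bin, 1 Mb for 5hmC and 100 kb for 5mC, without coverage. How sites were combined in a bin and the sequencing batches are not given in the sources used here. Counting error cannot be computed.

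The 100 kb bins of 5mC were averaged without weights into 1 Mb bins. The limma package (3.58.1, run in R 4.3.3) fitted 2581 bins, chromosome X included, over all 9 TAB-seq libraries. It was run on log2(level/(1 − level)) and on log2(level/library median), with Benjamini-Hochberg adjustment over all bins and a threshold of 0.05. Values per library were compared by two-sided exact permutation tests. Correlations across bins are given without p-values. Genes came from GENCODE release M 21, composition from GRCm38, and promoter sequences from RefSeq (GRCm38.p6). Python 3.11.15, numpy 2.4.6, pandas 2.3.3 and matplotlib 3.10.9 were used.

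The limma fits were tested on simulated data of 2581 bins. A change of 0.2 was recovered in 22.5% of changed bins for the level and in 93% for the relative level, and a change of 0.5 in 99% and 98.5%. The unit was log2 odds for the level and log2 ratio for the relative level. False calls numbered 1 and 13 at 0.2, and 12 and 3 at 0.5. Only 200 bins were changed and the noise was independent between bins. In the data most bins were called and neighbours were correlated, so this recovery need not hold there.

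The bins, gene lists and tests were chosen with earlier results of these data known. Named bins are the 10 largest relative rises and falls passing limma without overlap of libraries on both relative scales, all bins with a higher level, the 5 largest falls in level, the 3 longest runs per direction, and up to 2 rising and 2 falling genes per list, in the bin that holds most of the gene. Neurod1, Itpr1, the Hox bins, the genes of at least 1 Mb, the steps, the chromosomes and the bins near 0 were named after their values were seen. Some bins that these rules name are not reported here. Alternatives were other scales and centres, limma's trend and robust options, fits on cortex and cerebellum alone, bins at 0 included, the replicate number as a block, and each library left out.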

Additional observations from a re-analysis of the deposited data

How the results depend on the processing

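The total counts of bins called, both directions together, stayed within 1.5 times of the values reported under the alternatives tried. Because most bins were called, only fewer calls could have gone past that limit, and the totals do not show direction. Level calls lay between 2334 and 2379, relative calls between 1970 and 2234, and 5mC calls between 1891 and 2191. The number of bins with a higher level in cerebellum was 18 without the second cortex library, against 10. The number with less 5mC was 28 without the second cerebellum library, against 51. With the library mean as centre 971 bins were relatively higher and 1199 lower, and the median change was -0.06 in place of 0.03. By percentile rank in the library 943 bins were higher and 1027 lower, so the larger direction turned under both. The excess spread in cerebellum was 0.00234 as the SD of the level and 0.579 as the interquartile range. The gene-rich contrast was wider in cerebellum by 0.484 with coding genes alone and by 0.637 with limits of 95 and 5% cover. Adjacent bins had r = 0.399 on the difference scale.

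Replicate numbers did not pair the libraries. Relative deviations of same-numbered libraries had r between -0.067 and -0.042, and 0 of 6 libraries were most like the library of their own number. With the replicate block the fits called 2372 bins for the level and 2184 for the relative level, and the difference of medians was again -0.0800. With cortex and cerebellum alone and the block, chosen after seeing the data, they called 2356 and 2159.

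Of 80 bins followed, 6 changed sign on the difference scale, to 0.0116 (Ndrg2), 0.0370 (Mog), -0.0128 (Neurod1), 0.00468 (Nxph1), 0.0224 (Cacng7) and 0.00843 (the second Fgfr2 bin). Another 4 lost their call on that scale, namely the bin of Gabrg1, the first Dlg2 bin, the second Ptprd bin and the third Fgfr2 bin. The second Fgfr2 bin also lost its call on the ratio scale without any of the cortex libraries or the first or second cerebellum library. In the fit on cortex and cerebellum alone, 1 of the 80 bins lost its call on the ratio scale. The cause was not tested.

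The depth is unknown, so the precision of bins near 0 rests on 3 libraries a tissue.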
